A study of Mus musculus with 12 samples.

Results

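Transcript levels in mouse lung 4 weeks after paraquat were compared with those 4 weeks after saline, over every gene in the deposited tables. The comparison used 6 of the 12 libraries of the series, the 3 with the treatment label PQ 4w and the 3 with the label control 4w. Both groups were wild-type C57BL/6J mice, labelled as 8 weeks old. The PQ 4w group had received paraquat dissolved in saline once, through the trachea, and the control 4w group had received saline without paraquat. The dose is not given in the sources used here, and neither is whether the age refers to treatment or to tissue collection. RNA was taken from homogenized whole lung, so fewer cells of a type and less RNA per cell cannot be told apart in any value here. The labels number the replicates without saying that each is a separate animal, so each p-value reflects the spread among these samples, which may be technical.

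Paraquat is a herbicide that alveolar epithelium takes up through its polyamine transport, and inside cells it passes electrons to oxygen over and over, which makes superoxide. Injury of the alveolar wall is followed by inflammation and then by scarring, in which fibroblasts lay down collagen. Type 2 alveolar cells, which make surfactant, can replace the thin type 1 cells through which gas is exchanged, and macrophages derived from blood monocytes join those that live in the airspace. The labels name pulmonary fibrosis as the subject of the series, and the 4 week comparison asks how treated lung differs from saline lung at that time.

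Levels are given in CPM, expected counts scaled to a common library size, for replicates 1, 2 and 3 of a group in that order. Effects are paraquat against saline on the log2 scale, ± marks their standard error, and n = 3 per group throughout. A gene rose or fell where the adjusted p of an edgeR quasi-likelihood test (Benjamini-Hochberg over all 15921 genes tested of 20774 listed) was under 0.05, and no overlap means that all 3 values of one group lie above all 3 of the other. Gene lists for cell types and pathways are described by how many of their tested members rose or fell. Of the listed genes 65 stand in more than 1 list, so the counts of different lists are not separate. List members beyond the genes chosen by rule were picked after their values were seen. The rule for the 10 highest and 10 lowest effects admitted only genes without overlap, so their lack of overlap is not a result. Marco, Npr3, Jchain, Prg2 and Cxcl9 are among them.

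Library totals were 17220978 to 17824180 expected counts. The first principal component of the 6 libraries held 41.7% of the variance and separated the groups, with controls from -28.5 to -23.3 and paraquat libraries from 17.9 to 35.7. The next component held 29.7% and set PQ replicate 3, at -44.1, apart from PQ replicates 1 and 2 at 19.8 and 22.7. Replicates of the same group differed by more than counting noise, with chi-square per degree of freedom of 7.28 to 11 among controls, 15.9 between PQ replicates 1 and 2 and 31.7 and 33.8 for the pairs with PQ replicate 3. Defining markers of lung were present in all 6 libraries: the surfactant gene Sftpc measured 17110.2, 14261 and 15463 CPM in the controls and 15704, 14990.1 and 15944 CPM after paraquat. Transcripts of heart muscle were present too, and PQ replicate 3 held the least: Myh6, the atrial myosin heavy chain, measured 245, 715 and 570.2 CPM in the controls and 246, 479.7 and 58.6 CPM after paraquat.

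After paraquat 915 genes rose, 5.75% of those tested, and 1017 fell, 6.39%. Changes of at least 2-fold were mostly upward, with 294 genes rising (1.85%) against 94 falling (0.59%). The groups did not overlap for 4961 genes (31.2%), and 4456 (28.0%) had an unadjusted p under 0.05. The lists of antigen presentation, dendritic cells, interferon-induced genes and monocyte-derived and tissue macrophages held the largest shares of rising members among the lists described, and those of pan-endothelial, capillary and neutrophil genes held the largest shares of falling ones. The size of the response depends on which libraries enter: 366 genes rose and 380 fell when the 6 libraries were fitted alone, and 351 rose and 290 fell without control replicate 1. Of the genes that fell, 722 (71.0%) were lowest in PQ replicate 1, and of those that rose, 433 (47.3%) were highest in PQ replicate 3 and 362 (39.6%) in PQ replicate 1.

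**Figure D1:**
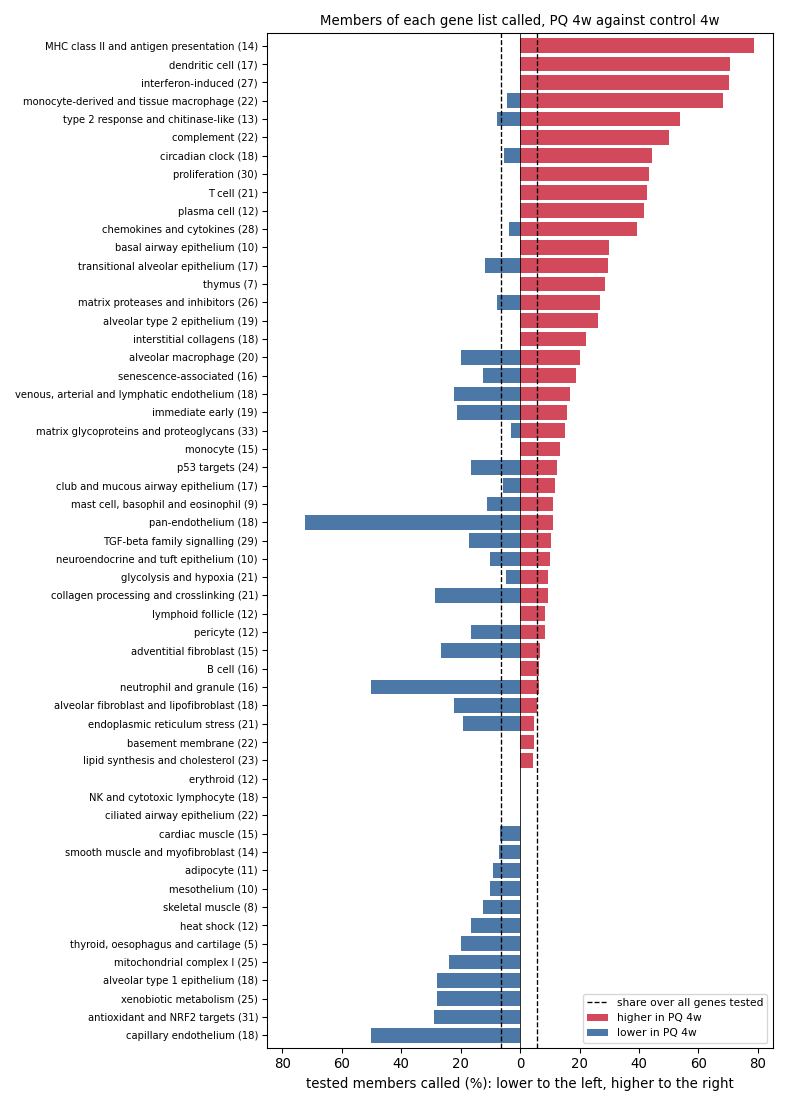
Share of the tested members of each gene list that rose (red, to the right) or fell (blue, to the left) after paraquat at 4 weeks, in percent, with the number tested in brackets. Dashed lines mark the shares over all 15921 genes, 5.75% and 6.39%. Antigen presentation, dendritic cell, interferon-induced and macrophage lists reach furthest to the right, and the pan-endothelium list (13 of 18 fell) reaches furthest to the left.

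Macrophage genes were among the lists with the largest shares of rising members. Of 22 tested genes of monocyte-derived and tissue macrophages 15 rose and 1 fell, with a median log2 effect of 1.12 against 0.00 over all genes tested. Gpnmb (chr6:49036518-49058182), a membrane glycoprotein of lipid-laden macrophages, measured 13, 14.1 and 13.4 CPM in the controls and 66, 59.5 and 43.5 CPM after paraquat. The treated libraries all lay far above the highest control, and the gene was 4.17-fold higher (log2 2.06 ± 0.13, edgeR adjusted p = 1.88e-05). Cd68, which encodes a lysosomal membrane protein of macrophages, measured 24.2, 24.2 and 26.8 CPM in the controls and 59.3, 50.9 and 54.3 CPM after paraquat. All 3 treated values again exceeded all 3 control values, and Cd68 was 2.19-fold higher (log2 1.13 ± 0.08, edgeR adjusted p = 8.03e-05). Mmp12, the macrophage elastase, measured 3.93, 5.83 and 3.48 CPM in the controls and 29.1, 47.7 and 15 CPM after paraquat and was 6.92-fold higher (log2 2.79 ± 0.35, edgeR adjusted p = 0.00105). Its highest value came from PQ replicate 2 and its lowest treated value from PQ replicate 3. Trem2, a lipid receptor of macrophages and microglia, measured 3.65, 3.39 and 2.34 CPM in the controls and 17.7, 15.2 and 11.7 CPM after paraquat and was 4.75-fold higher (log2 2.25 ± 0.20, edgeR adjusted p = 0.000246). The other members that rose included Adgre1 (2.34-fold), which encodes F4/80, Cx3cr1 (2.06-fold), the fractalkine receptor, Ms4a7 (4.65-fold) and Apoe (2.17-fold). Lyve1, which marks a subset of tissue macrophages and lymphatic vessels, was the member that fell, at 565, 580.1 and 498 CPM in the controls and 91.1, 219 and 310.0 CPM after paraquat (log2 -1.41 ± 0.32, edgeR adjusted p = 0.0153). It lost its call without control replicate 1 (adjusted p = 0.0581). Between 13 and 15 members rose with any 1 of the 6 libraries left out.

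Genes of airspace macrophages did not move as a block. Of 20 tested, 4 rose (Atp6v0d2, Ctsd, Mrc1 and Trem2) and 4 fell, against 5.75% and 6.39% of all genes. The list median was 0.03. Trem2 is also counted in the list of monocyte-derived and tissue macrophages. The mannose receptor Mrc1 measured 38.7, 40.7 and 41.6 CPM in the controls and 83.4, 69.8 and 72.7 CPM after paraquat and was 1.87-fold higher (log2 0.90 ± 0.07, edgeR adjusted p = 0.000156). Marco (chr1:120474538-120505024), a scavenger receptor, measured 9.08, 18.5 and 6.62 CPM in the controls and 0.385, 2.48 and 1.1 CPM after paraquat, so every treated library lay below every control, and it was 8.65-fold lower (log2 -3.11 ± 0.46, edgeR adjusted p = 0.0021). Without PQ replicate 2 the effect on Marco was log2 -3.92, adjusted p = 0.00152. Krt79 measured 14.8, 16.9 and 15.5 CPM in the controls and 0.44, 4.33 and 4.39 CPM after paraquat and was 5.15-fold lower (log2 -2.36 ± 0.55, edgeR adjusted p = 0.0172); PQ replicate 1 was lowest by far, and the call was lost without control replicate 1 (adjusted p = 0.0552). Chil3, a chitinase-like protein abundant in these cells, did not pass at 275, 263 and 261 CPM in the controls and 197, 249 and 354 CPM after paraquat, with groups that overlap (log2 0.00 ± 0.17, edgeR adjusted p = 0.995). Car4 and Flt1, the other members that fell, are also capillary genes. Spp1, osteopontin, did not pass at 133, 154 and 144 CPM in the controls and 273, 165 and 189 CPM after paraquat (log2 0.54 ± 0.24, edgeR adjusted p = 0.163), although its groups did not overlap.

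Dendritic cells take up antigen and show it to T cells on MHC class II molecules, and both sets of genes rose. Of 17 tested dendritic cell genes 12 rose and none fell (median 1.06), and of 14 genes of class II antigen presentation 11 rose and none fell (median 0.98). H2-Ab1 is counted in both lists. Xcr1, the chemokine receptor of cross-presenting dendritic cells, measured 4.4, 3.96 and 4.28 CPM in the controls and 13.3, 9.9 and 10.2 CPM after paraquat and was 2.64-fold higher (log2 1.40 ± 0.14, edgeR adjusted p = 0.000347). Flt3, the receptor for the growth factor of the dendritic lineage, measured 4.69, 5.2 and 5.54 CPM in the controls and 16.5, 13.1 and 15.4 CPM after paraquat and was 2.91-fold higher (log2 1.54 ± 0.17, edgeR adjusted p = 0.000574). For both genes every treated library lay well above the highest control. Further members that rose were Clec9a (1.25-fold), Batf3 (2.21-fold), Itgax (1.63-fold), Ccl17 (2.55-fold) and Ccl22 (2.47-fold), the last pair being chemokines that draw cells bearing CCR4. Among class II genes H2-Aa, an alpha chain, measured 394, 388 and 410.2 CPM in the controls and 889.8, 693 and 975 CPM after paraquat and was 2.15-fold higher (log2 1.10 ± 0.12, edgeR adjusted p = 0.000609). PQ replicate 2 was the lowest treated library and still lay above every control. Ctss, the cathepsin that trims the invariant chain, measured 128, 128 and 106 CPM in the controls and 281, 242 and 363 CPM after paraquat and was 2.45-fold higher (log2 1.29 ± 0.13, edgeR adjusted p = 0.000347). The dendritic cell count was 7 without control replicate 1; the class II count stayed between 9 and 13 with any 1 library left out.

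Class II promoters are known to carry a Y box, an inverted CCAAT motif bound by NF-Y. The 250 bases before the RefSeq start were searched on both strands for the letters CTGATTGG, which contain CCAAT on the other strand. They occur in 3 of the 9 tested class II genes with a promoter in the table, H2-Aa, H2-Eb1 and H2-Oa, against 5.96% of 12520 tested genes and 3.83% of all 32851 promoters. All 3 rose: H2-Aa (2.15-fold), H2-Eb1 (2.19-fold) and H2-Oa (1.79-fold). The windows of H2-Aa and H2-Eb1 are shown because these genes encode an alpha and a beta chain of class II molecules, rose and hold the motif, with the match in capitals (RefSeq, GRCm38.p6; H2-Aa chr17:34287824-34288073, minus strand; H2-Eb1 chr17:34305617-34305866, plus strand; read along the gene, 5′ to 3′). A match describes letters and is not evidence of binding.
H2-Aa: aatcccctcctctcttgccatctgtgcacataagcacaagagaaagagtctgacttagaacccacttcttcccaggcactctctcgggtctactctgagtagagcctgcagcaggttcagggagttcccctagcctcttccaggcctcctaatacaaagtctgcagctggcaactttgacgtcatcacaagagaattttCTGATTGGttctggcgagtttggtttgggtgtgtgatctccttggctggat
H2-Eb1: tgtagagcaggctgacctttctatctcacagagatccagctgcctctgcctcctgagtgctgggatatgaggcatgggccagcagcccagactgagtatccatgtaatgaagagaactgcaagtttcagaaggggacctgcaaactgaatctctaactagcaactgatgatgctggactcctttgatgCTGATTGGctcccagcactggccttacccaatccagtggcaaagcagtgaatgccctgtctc

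Interferon-induced genes encode antiviral proteins and GTPases that cells switch on when their interferon receptors are engaged. Of 27 tested members 19 rose and none fell, with a median of 1.06, and in 24 the groups did not overlap, against 31.2% of all genes. The mean level of the list over its members, on the log2 (CPM + 0.5) scale and relative to controls, was 0.41, 0.51 and 1.58 in PQ replicates 1, 2 and 3 and 0.06, -0.06 and 0.00 in the controls, so PQ replicate 3 was well above the other two. Mx1, a member of the dynamin-like GTPase family that is annotated here as a transcribed pseudogene, measured 3.24, 4.07 and 3.82 CPM in the controls and 8.08, 12.8 and 30.2 CPM after paraquat and was 4.58-fold higher (log2 2.20 ± 0.40, edgeR adjusted p = 0.0059). Oas2, which makes the second messenger that activates RNase L, measured 18.7, 22 and 19.5 CPM in the controls and 31.5, 35.5 and 60.9 CPM after paraquat and was 2.12-fold higher (log2 1.09 ± 0.22, edgeR adjusted p = 0.00995). Without PQ replicate 3 the effect on Mx1 was log2 1.49, adjusted p = 0.00295, and without control replicate 1 Oas2 was no longer called (adjusted p = 0.052). The count of members that rose was 2 without control replicate 1, 4 without control replicate 2, 3 without control replicate 3 and 1 in a fit of the 6 libraries alone.

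The interferon-stimulated response element, spelled GAAA, any pair of bases, GAAA, and searched on both strands of the same windows, occurs in 10 of 18 interferon-list members with a promoter in the table, against 3.35% of tested genes and 2.98% of all promoters. Windows are shown for Isg15, an ubiquitin-like modifier, Ifit1, which binds viral RNA, and Rsad2, the antiviral enzyme viperin, with matches in capitals; runs of overlapping matches appear as 1 block (GRCm38.p6; Isg15 chr4:156200819-156201068, minus strand; Ifit1 chr19:34640639-34640888, plus strand; Rsad2 chr12:26456453-26456702, minus strand). Isg15 measured 10.7, 8.99 and 9.25 CPM in the controls and 12.8, 14.5 and 47.8 CPM after paraquat (2.59-fold higher, edgeR adjusted p = 0.0404). Ifit1 measured 16.2, 14.3 and 16.7 CPM in the controls and 22.7, 24.8 and 60.8 CPM after paraquat (2.3-fold higher, edgeR adjusted p = 0.0267). Rsad2 measured 7.93, 7.69 and 6.73 CPM in the controls and 15.6, 12.4 and 38.4 CPM after paraquat (2.97-fold higher, edgeR adjusted p = 0.0146). In all 3 genes PQ replicate 3 was the highest library, and without it the log2 effects were 0.50, 0.59 and 0.91. The call was lost for Isg15 without control replicate 1, 2 or 3 (adjusted p 0.102 to 0.116), Ifit1 without control replicate 1, 2 or 3 (adjusted p 0.0646 to 0.0878) and Rsad2 without control replicate 1 or 3 (adjusted p 0.0531 to 0.0571). Of the 10 members that hold the motif, Ifit3, Oas3 and Stat2 did not pass, and a match is not evidence of control.
Isg15: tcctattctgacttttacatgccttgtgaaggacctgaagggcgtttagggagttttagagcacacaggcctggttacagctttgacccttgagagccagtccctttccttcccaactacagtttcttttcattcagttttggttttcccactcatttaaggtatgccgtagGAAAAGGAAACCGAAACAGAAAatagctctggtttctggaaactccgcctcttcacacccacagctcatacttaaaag
Ifit1: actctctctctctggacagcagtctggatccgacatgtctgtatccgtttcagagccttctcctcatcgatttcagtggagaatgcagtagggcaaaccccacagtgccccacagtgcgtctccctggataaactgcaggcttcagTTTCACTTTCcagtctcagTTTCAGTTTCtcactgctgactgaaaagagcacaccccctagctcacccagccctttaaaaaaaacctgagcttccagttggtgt
Rsad2: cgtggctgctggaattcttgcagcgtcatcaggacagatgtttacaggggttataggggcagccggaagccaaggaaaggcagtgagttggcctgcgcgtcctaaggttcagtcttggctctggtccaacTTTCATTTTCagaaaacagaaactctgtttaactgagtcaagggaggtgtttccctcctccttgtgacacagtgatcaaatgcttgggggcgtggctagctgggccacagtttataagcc

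**Figure D2:**
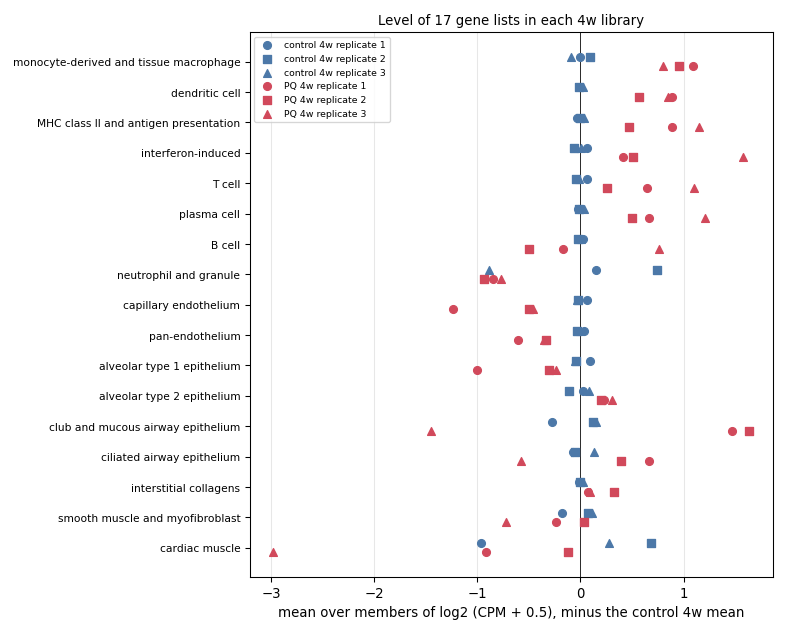
Level of 17 gene lists in each of the 6 libraries, as log2 (CPM + 0.5) averaged over tested members and set relative to the control average (x axis); blue is control 4w, red is PQ 4w, and the marker shape gives the replicate. Monocyte-derived and tissue macrophage, dendritic cell and class II lists are higher in all 3 treated libraries, whereas club, ciliated and cardiac muscle lists are lowest in PQ replicate 3.

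Chemokines and cytokines gave 11 higher and 1 lower of 28 tested (median 0.82). Cxcl12, which holds CXCR4-bearing cells in tissue, measured 184, 197 and 225 CPM in the controls and 455, 421 and 346 CPM after paraquat and was 2.02-fold higher (log2 1.01 ± 0.11, edgeR adjusted p = 0.000568). Ccl8, a monocyte chemokine, measured 2.84, 1.98 and 2 CPM in the controls and 6.21, 17.2 and 14.9 CPM after paraquat and was 5.6-fold higher (log2 2.49 ± 0.35, edgeR adjusted p = 0.00182). Cxcl9 (chr5:92321331-92328079), an interferon-gamma target that draws activated T cells, measured 1.85, 0.961 and 1.37 CPM in the controls and 6.38, 7.82 and 36.1 CPM after paraquat and was 12-fold higher (log2 3.58 ± 0.63, edgeR adjusted p = 0.0048). PQ replicate 3 stood far above the other treated libraries for Cxcl9, and without it the effect was log2 2.34, adjusted p = 0.000882. Ccl20, the ligand of CCR6, measured 0.347, 0.283 and 0.4 CPM in the controls and 3.35, 1.18 and 5.22 CPM after paraquat and was 9.32-fold higher (log2 3.22 ± 0.55, edgeR adjusted p = 0.00434). The number of members that rose was 4 without control replicate 1, 7 without control replicate 2, 6 without control replicate 3 and 5 in a fit of the 6 libraries alone.

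Some T cell and plasma cell genes rose, while most B cell genes and all NK and cytotoxic genes did not pass. Of 21 tested T cell genes 9 rose and none fell (median 0.56). Foxp3, the transcription factor of regulatory T cells, measured 1.16, 0.792 and 1.6 CPM in the controls and 3.57, 3.26 and 5.38 CPM after paraquat and was 3.43-fold higher (log2 1.78 ± 0.28, edgeR adjusted p = 0.00293). Cd4 measured 8.27, 8.82 and 7.42 CPM in the controls and 21.2, 14.3 and 30 CPM after paraquat and was 2.67-fold higher (log2 1.42 ± 0.22, edgeR adjusted p = 0.00293). Other members that rose were Ctla4 (3.74-fold) and Icos (2.35-fold), both co-receptors of activated T cells, and Il7r (1.48-fold). Cd3g, Cd5, Cd6 and Cd28 rose as well. Cd3e, a chain of the T cell receptor complex, did not pass at 5.44, 2.83 and 5.36 CPM in the controls and 8.19, 5.57 and 11.2 CPM after paraquat (log2 0.87 ± 0.28, edgeR adjusted p = 0.0657), and it passed without PQ replicate 2 (log2 1.11, adjusted p = 0.025). Without PQ replicate 2 16 members rose, with 5 without control replicate 1, 5 without control replicate 2 and 3 in a fit of the 6 libraries alone. Of the 7 tested genes of a thymus list, Themis, at 2.26, 2.49 and 2.51 CPM in the controls and 5.22, 4.22 and 5.87 CPM after paraquat (log2 1.08 ± 0.22, edgeR adjusted p = 0.011), and Ccr9, at 1.27, 2.09 and 1.08 CPM in the controls and 3.52, 2.25 and 3.29 CPM after paraquat (log2 1.02 ± 0.31, edgeR adjusted p = 0.0494), rose, while the thymocyte recombinase genes Rag1 and Rag2 were too low to test. Calls were lost for Themis without control replicate 1 (adjusted p = 0.0526); Ccr9 without PQ replicate 1 or 3 or control replicate 1 or 3 (adjusted p 0.0837 to 0.167).

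Jchain (chr5:88519809-88527897), the chain that joins IgA and IgM into polymers, had one of the largest effects of an abundant gene. It measured 16.8, 18.2 and 19.1 CPM in the controls and 406, 275 and 598 CPM after paraquat, so every treated library lay an order of magnitude above the controls, and it was 23.6-fold higher (log2 4.56 ± 0.43, edgeR adjusted p = 0.000247). In all, 5 of 12 tested plasma cell genes rose and none fell: Jchain, Mzb1, Derl3, Irf4 and Tnfrsf17. Irf4 is also counted among the dendritic cell genes that rose. Irf4, a transcription factor of plasma cells and activated lymphocytes, measured 4.98, 5.99 and 6.11 CPM in the controls and 11.2, 9.68 and 22.5 CPM after paraquat and was 2.53-fold higher (log2 1.34 ± 0.29, edgeR adjusted p = 0.0138). It was no longer called without control replicate 1 (adjusted p = 0.0651). Mzb1, an endoplasmic reticulum protein of antibody-secreting cells, measured 5.67, 6.16 and 5.76 CPM in the controls and 12.8, 8.95 and 31.7 CPM after paraquat (log2 1.60 ± 0.38, edgeR adjusted p = 0.0178). It was at log2 0.89 without PQ replicate 3 and lost its call without any 1 control (adjusted p 0.0534 to 0.072). The plasma cell count was 1 without control replicate 1, 2 without control replicate 2, 2 without control replicate 3 and 1 in a fit of the 6 libraries alone. Igha, the IgA heavy chain gene, was not tested here.

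Of 16 tested B cell genes, Cd74 alone rose, a share near the 5.75% of all genes. Cd74 also serves class II presentation in other cells. The mean level of the B cell list was -0.17, -0.50 and 0.77 in the treated libraries, on the log2 (CPM + 0.5) scale relative to controls. Lta, which encodes lymphotoxin, rose among 12 tested genes of lymphoid follicles, at 0.463, 0.452 and 0.856 CPM in the controls and 1.43, 1.01 and 2.47 CPM after paraquat (log2 1.46 ± 0.42, edgeR adjusted p = 0.0399). Cxcl13, which draws B cells into follicles, did not pass at 3.01, 7.3 and 2.63 CPM in the controls and 5.06, 4.73 and 20.8 CPM after paraquat (log2 1.24 ± 0.64, edgeR adjusted p = 0.227). Lta was the 1 follicle gene that rose, against 5.75% of all genes. It lost its call without PQ replicate 1 or 3 or control replicate 1 or 2 (adjusted p 0.0746 to 0.149). None of 18 NK and cytotoxic genes passed in edgeR or DESeq2, and 2 had an unadjusted edgeR p under 0.05. Gzma, which encodes granzyme A, measured 26.6, 24.8 and 14.8 CPM in the controls and 17, 17.7 and 19.2 CPM after paraquat (log2 -0.29 ± 0.22, edgeR adjusted p = 0.414).

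Complement genes rose in 11 of 22 tested members and fell in none (median 0.38). C1qb, a chain of the C1q recognition protein made by macrophages, measured 37.3, 43.1 and 37.2 CPM in the controls and 122, 110.0 and 123 CPM after paraquat and was 3.02-fold higher (log2 1.59 ± 0.15, edgeR adjusted p = 0.000247). C3ar1, the receptor for the C3a fragment, measured 4.4, 5.99 and 6.16 CPM in the controls and 18.1, 17.2 and 16 CPM after paraquat and was 3.09-fold higher (log2 1.63 ± 0.15, edgeR adjusted p = 0.000247). In both the treated values lay close together and far above the controls. Of the 11, the 3 C1q genes are macrophage list members too. Without control replicate 1 the count was 7.

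Neutrophil genes were lower on balance, with a wide spread among controls. Of 16 tested, 8 fell and 1 rose (median -1.22), and the groups did not overlap for 6, against 31.2% of all genes. The mean list level, log2 (CPM + 0.5) relative to controls, was -0.84, -0.93 and -0.77 in PQ replicates 1, 2 and 3. In the controls it was 0.15, 0.74 and -0.88, so control replicate 3 lay within the treated range. S100a8, a calcium-binding alarmin that neutrophils hold in bulk, measured 58.7, 97.8 and 17.3 CPM in the controls and 10.1, 11.1 and 21.6 CPM after paraquat and was 4.07-fold lower (log2 -2.02 ± 0.54, edgeR adjusted p = 0.031). Its lowest control, replicate 3, lay below the highest treated library, so the groups overlap. Retnlg, a resistin-like gene of neutrophils, measured 21.1, 33 and 6.62 CPM in the controls and 3.57, 5.91 and 5.87 CPM after paraquat and was 3.96-fold lower (log2 -1.98 ± 0.58, edgeR adjusted p = 0.0457). Cxcr2, the receptor that brings neutrophils out of blood, measured 43.9, 45.3 and 26.3 CPM in the controls and 22.8, 24.9 and 17.9 CPM after paraquat and was 1.76-fold lower (log2 -0.82 ± 0.20, edgeR adjusted p = 0.0233). Lcn2, which binds bacterial iron carriers and is also made by epithelium, was the member that rose, at 77.5, 97.6 and 82.9 CPM in the controls and 228, 140.4 and 176 CPM after paraquat (log2 1.08 ± 0.17, edgeR adjusted p = 0.00322). The number that fell was 0 without PQ replicate 1, 1 without PQ replicate 2, 0 without control replicate 1, 0 without control replicate 2 and 0 in a fit of the 6 libraries alone. Calls were lost for S100a8 without PQ replicate 1 or 2 or control replicate 1 or 2 (adjusted p 0.0829 to 0.131), Retnlg without PQ replicate 1, 2 or 3 or control replicate 1 or 2 (adjusted p 0.0614 to 0.177) and Cxcr2 without PQ replicate 1 or 3 or control replicate 1 or 2 (adjusted p 0.0518 to 0.102). Without control replicate 2 S100a8 was at log2 -1.40, adjusted p = 0.131.

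Among genes of type 2 responses 7 of 13 tested rose and 1 fell (median 1.34). The mean level of the list relative to controls, on the log2 (CPM + 0.5) scale, was 1.05, 2.29 and 0.00 in PQ replicates 1, 2 and 3 and 0.03, -0.14 and 0.12 in the controls, so PQ replicate 3 lay within the range of the controls. Arg1, the arginase of alternatively activated macrophages, measured 1.39, 0.848 and 0.913 CPM in the controls and 5.06, 6.58 and 1.7 CPM after paraquat and was 4.21-fold higher (log2 2.08 ± 0.42, edgeR adjusted p = 0.00947). Clec10a, a lectin of macrophages and dendritic cells, measured 4.63, 4.19 and 4.62 CPM in the controls and 15.3, 8.95 and 9.66 CPM after paraquat and was 2.52-fold higher (log2 1.34 ± 0.22, edgeR adjusted p = 0.00343). Chil4, a chitinase-like protein, had the largest fitted effect of the named genes (log2 8.39, edgeR adjusted p = 0.0373), and it rests on 1 library: it measured 0.231, 0.113 and 0.171 CPM in the controls and 0.88, 179 and 0.494 CPM after paraquat. Without PQ replicate 2 it was at log2 1.97, adjusted p = 0.429, and the call was also lost without any 1 control. Chil4 passed the filter on low counts only with the 1 week libraries included. The list of mast cells, basophils and eosinophils gave 1 higher and 1 lower of 9 tested, against 5.75% and 6.39% of all genes. Its median was -0.65, and 2 of its effects were positive. Prg2, the major basic protein of eosinophils, measured 0.289, 0.226 and 0.171 CPM in the controls and 3.19, 2.36 and 3.29 CPM after paraquat and was 12.5-fold higher (log2 3.65 ± 0.31, edgeR adjusted p = 0.000156). Its treated values are close together and far above any control, whereas Epx, the eosinophil peroxidase, was too low to test. Gata2, which mast cells, basophils and endothelium express, fell at 282, 292 and 266 CPM in the controls and 137, 170.1 and 153 CPM after paraquat (log2 -0.87 ± 0.11, edgeR adjusted p = 0.00105). The type 2 count of members that rose was 4 without PQ replicate 2, 2 without control replicate 1, 3 without control replicate 2, 4 without control replicate 3 and 1 in a fit of the 6 libraries alone. Of the 7 that rose, Arg1 is also counted in the macrophage list. Ccl17 is also counted in the dendritic cell and chemokine lists.

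Endothelial transcripts were lower after paraquat. Of 18 tested pan-endothelial genes 13 fell and 2 rose (median -0.43), against 6.39% and 5.75% of all genes. In 17 the groups did not overlap, against 31.2% of all genes. Cldn5, the tight junction claudin of endothelium, measured 787, 759 and 624 CPM in the controls and 236, 325 and 359 CPM after paraquat and was 2.36-fold lower (log2 -1.24 ± 0.17, edgeR adjusted p = 0.0016). Esam, a junctional adhesion molecule, measured 363, 336 and 298 CPM in the controls and 170.2, 202 and 227 CPM after paraquat and was 1.66-fold lower (log2 -0.73 ± 0.11, edgeR adjusted p = 0.00235). For both genes PQ replicate 1 was the lowest library and no treated value reached a control value. Pecam1, the adhesion molecule CD31, fell less, at 954, 843 and 972 CPM in the controls and 653, 774 and 756 CPM after paraquat (log2 -0.34 ± 0.09, edgeR adjusted p = 0.0353), and its call was lost without PQ replicate 1 or 2 or control replicate 1 or 3 (adjusted p 0.0503 to 0.149). The members that rose were Emcn, a sialomucin of venous and capillary endothelium, at 54.9, 55.3 and 54.9 CPM in the controls and 101, 83.7 and 64 CPM after paraquat (log2 0.59 ± 0.14, edgeR adjusted p = 0.0193), and Sox17, a transcription factor of arterial endothelium, at 63.1, 68.7 and 66.4 CPM in the controls and 126, 104 and 80.5 CPM after paraquat (log2 0.65 ± 0.14, edgeR adjusted p = 0.0122). Neither kept its call without control replicate 1, nor Emcn without PQ replicate 1 or any other control (adjusted p 0.0522 to 0.0715 for Emcn and 0.0563 for Sox17). The number that fell was 6 without PQ replicate 1, 7 without control replicate 1, 8 without control replicate 3 and 6 in a fit of the 6 libraries alone.

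Capillary genes fell in 9 of 18 tested members and rose in none (median -0.62). Apln, which encodes the peptide apelin, measured 91.7, 68.3 and 69 CPM in the controls and 14.5, 27.3 and 35.7 CPM after paraquat and was 2.96-fold lower (log2 -1.56 ± 0.24, edgeR adjusted p = 0.00292). Prx, periaxin, measured 513, 395 and 501 CPM in the controls and 189, 290.1 and 269.5 CPM after paraquat and was 1.88-fold lower (log2 -0.91 ± 0.16, edgeR adjusted p = 0.00434). Car4, the carbonic anhydrase of the capillary surface, measured 224, 216 and 195 CPM in the controls and 50.9, 124 and 108 CPM after paraquat and was 2.24-fold lower (log2 -1.16 ± 0.23, edgeR adjusted p = 0.00851). In these genes PQ replicate 1 held the lowest value, and the list's mean level was -1.23, -0.50 and -0.46 in PQ replicates 1, 2 and 3. A fit of the 6 libraries alone called 3 members.

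Genes of larger and lymphatic vessels went both ways, with 3 of 18 rising and 4 falling, against 5.75% and 6.39% of all genes. Gja5, the gap junction protein connexin 40 of arteries, measured 49.4, 48.8 and 38.5 CPM in the controls and 11.8, 15 and 23.1 CPM after paraquat and was 2.74-fold lower (log2 -1.45 ± 0.18, edgeR adjusted p = 0.00106). Mmrn1, a multimerin of lymphatic endothelium and platelets, rose, at 26.3, 26.5 and 30.4 CPM in the controls and 44.5, 52.1 and 46.7 CPM after paraquat (log2 0.79 ± 0.10, edgeR adjusted p = 0.00108). Reln and Ackr1, the atypical chemokine receptor of venules, were the others that rose, and Efnb2, Lyve1 and Vwf fell beside Gja5. Without control replicate 1, 1 of these members fell. Npr3 (chr15:11839896-11907837), the natriuretic peptide clearance receptor, was in no list and was among the largest decreases of an abundant gene. It measured 376, 325 and 375 CPM in the controls and 37.7, 82.9 and 139 CPM after paraquat, with every treated value far below any control value, and was 4.14-fold lower (log2 -2.05 ± 0.32, edgeR adjusted p = 0.00274).

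**Figure D3:**
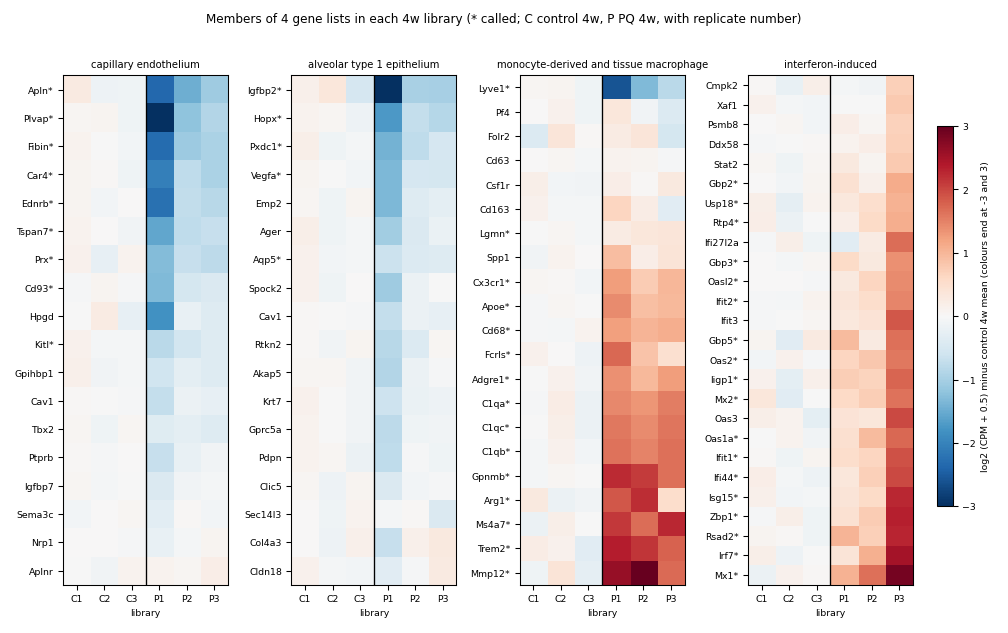
Members of 4 gene lists (rows; not every member is drawn) in the 6 libraries (columns), coloured by log2 (CPM + 0.5) minus the control mean, red higher and blue lower; asterisks mark members that rose or fell. Capillary and type 1 members are palest in the controls and bluest in PQ replicate 1, and interferon-induced members are reddest in PQ replicate 3.

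Alveolar type 1 genes fell in 5 of 18 tested members and rose in none (median -0.35). Hopx, a homeobox cofactor of type 1 cells, measured 866, 835 and 727 CPM in the controls and 244, 489 and 448 CPM after paraquat and was 2.06-fold lower (log2 -1.04 ± 0.19, edgeR adjusted p = 0.00605). Pxdc1 measured 246, 198 and 208 CPM in the controls and 80.8, 128 and 153 CPM after paraquat and was 1.8-fold lower (log2 -0.85 ± 0.17, edgeR adjusted p = 0.0104). Vegfa, the endothelial growth factor that type 1 cells supply to capillaries, measured 935, 873 and 828 CPM in the controls and 344, 622 and 611 CPM after paraquat and was 1.67-fold lower (log2 -0.74 ± 0.17, edgeR adjusted p = 0.0161). Each of these genes was lowest in PQ replicate 1, with no overlap between groups. Aqp5, a water channel, and Igfbp2 also fell, 1.4-fold and 2.8-fold. Ager, which encodes the receptor RAGE, did not pass at 2529.6, 2049.9 and 2146 CPM in the controls and 1080.1, 1644 and 1935 CPM after paraquat (log2 -0.53 ± 0.17, edgeR adjusted p = 0.0687), and it fell without PQ replicate 3 (log2 -0.72, adjusted p = 0.0153). Without control replicate 1 the list held 1 call, with Pxdc1 at adjusted p = 0.0575 and Vegfa at 0.0717, and 8 members fell without PQ replicate 3; the fit of the 6 libraries alone called 1.

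Of 19 tested alveolar type 2 genes 5 rose, a share above the 5.75% of all genes, and none fell (median 0.26). The groups did not overlap for 11 of the 19, against 31.2% of all genes, and 16 effects were positive. Lyz1, a lysozyme, measured 775, 986 and 738 CPM in the controls and 1466, 1102 and 1127 CPM after paraquat and was 1.48-fold higher (log2 0.56 ± 0.14, edgeR adjusted p = 0.0242). Lamp3, a lamellar body membrane protein, measured 350.3, 331 and 361 CPM in the controls and 421, 389 and 491 CPM after paraquat and was 1.25-fold higher (log2 0.32 ± 0.08, edgeR adjusted p = 0.0302). Sftpc did not pass (log2 -0.01 ± 0.11, edgeR adjusted p = 0.981). The count was 1 without PQ replicate 1, 3 without PQ replicate 2, 2 without PQ replicate 3, 0 without control replicate 1, 1 without control replicate 2 and 1 in a fit of the 6 libraries alone, and calls were lost for Lyz1 without PQ replicate 1 or control replicate 1 or 3 (adjusted p 0.0767 to 0.094); Lamp3 without PQ replicate 1 or 3 or control replicate 1, 2 or 3 (adjusted p 0.0518 to 0.0975).

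The transitional state between type 2 and type 1 cells is marked by keratin 8 and by stress genes. Of 17 tested genes 5 rose (Areg, Lcn2, Lgals3, Sprr1a and Tnip3) and 2 fell (Cdkn1a and Plaur), against 5.75% and 6.39% of all genes. Areg, an EGF receptor ligand, was 2.65-fold higher (log2 1.41 ± 0.35, edgeR adjusted p = 0.0247), and Lgals3, a galectin also made by macrophages, was 1.38-fold higher (log2 0.46 ± 0.07, edgeR adjusted p = 0.00334). Areg was at log2 0.84 without PQ replicate 1, and lost its call there and without any 1 control (adjusted p 0.0581 to 0.0828). Krt8 did not pass at 184, 192 and 200.0 CPM in the controls and 235, 250.3 and 175 CPM after paraquat (log2 0.20 ± 0.13, edgeR adjusted p = 0.359). Cdkn1a (chr17:29090979-29100722), the cell cycle inhibitor p21, measured 327, 317 and 198 CPM in the controls and 87.6, 111 and 118 CPM after paraquat and was 2.65-fold lower (log2 -1.41 ± 0.17, edgeR adjusted p = 0.000919). Every treated value lay below the lowest control, and the call held with any 1 library left out. Without PQ replicate 3, 8 members of the list rose, and without control replicate 1, 3 rose.

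Airway genes depended on PQ replicate 3. Of 17 tested club and mucous genes 2 rose and 1 fell, against 5.75% and 6.39% of all genes. Of 22 ciliated genes none passed in edgeR or DESeq2, with 0 at an unadjusted edgeR p under 0.05. The club cell secretory gene Scgb1a1 did not pass at 43817, 39622 and 48086 CPM in the controls and 31152, 41151 and 19969 CPM after paraquat (log2 -0.51 ± 0.23, edgeR adjusted p = 0.168). Gp2, a glycoprotein of mucosal secretory and M cells, measured 1.22, 2.21 and 1.77 CPM in the controls and 93.4, 31.8 and 0.878 CPM after paraquat (log2 4.59 ± 1.19, edgeR adjusted p = 0.027). Agr2, a disulfide isomerase needed for mucin, measured 0.81, 1.02 and 0.913 CPM in the controls and 11.9, 11.4 and 0.549 CPM after paraquat (log2 3.11 ± 0.80, edgeR adjusted p = 0.027). Both were high in PQ replicates 1 and 2 and below every control in PQ replicate 3. The same division was present in Bpifa1, an airway surface protein, at 99.7, 234 and 235 CPM in the controls and 625, 594 and 23.2 CPM after paraquat, and in Muc5b, a secreted mucin, at 263, 254 and 309.7 CPM in the controls and 692, 704 and 58.2 CPM after paraquat, neither of which passed. Foxj1, the master factor of motile cilia, did not pass at 164, 180.0 and 187 CPM in the controls and 294, 235 and 119 CPM after paraquat (log2 0.29 ± 0.26, edgeR adjusted p = 0.517), and it rose without PQ replicate 3 (log2 0.58, adjusted p = 0.0462). Without PQ replicate 3, 8 club and 8 ciliated genes rose. Heart muscle genes, the low point of the same library, had a mean list level of -0.92, -0.12 and -2.98 in the treated libraries and -0.96, 0.69 and 0.27 in the controls, and their part in these results was not tested. Calls were lost for Gp2 without PQ replicate 1 or control replicate 1, 2 or 3 (adjusted p 0.0789 to 0.113); Agr2 without PQ replicate 1 or 2 or control replicate 1, 2 or 3 (adjusted p 0.0606 to 0.102).

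Of 10 tested basal cell genes 3 rose and none fell, and these 3 were low in saline lung. Icam1, an adhesion molecule made by many cell types, measured 476, 407 and 441 CPM in the controls and 248, 339 and 404 CPM after paraquat and did not pass (log2 -0.42 ± 0.14, edgeR adjusted p = 0.071). It made up most of the summed level of the 10 genes, which was 463 to 537 CPM in the controls and 331 to 490.4 CPM after paraquat. Trp63, the p63 factor of basal cells, measured 0.231, 0.339 and 0.742 CPM in the controls and 3.13, 1.52 and 0.769 CPM after paraquat (log2 2.03 ± 0.58, edgeR adjusted p = 0.0423). Aqp3, a water and glycerol channel, measured 0.752, 1.07 and 1.43 CPM in the controls and 2.91, 4.44 and 2.47 CPM after paraquat (log2 1.59 ± 0.40, edgeR adjusted p = 0.0244). Krt14 also rose, and Krt5, the basal keratin, did not pass at 0.116, 0.113 and 0.114 CPM in the controls and 4.23, 1.18 and 0.22 CPM after paraquat (log2 3.96 ± 1.47, edgeR adjusted p = 0.101). The number that rose was 0 without PQ replicate 1, 0 without PQ replicate 2, 5 without PQ replicate 3, 0 without control replicate 1, 0 without control replicate 2 and 1 in a fit of the 6 libraries alone. Calls were lost for Trp63 without PQ replicate 1 or 2 or control replicate 1 or 2 (adjusted p 0.0532 to 0.184); Aqp3 without PQ replicate 1 or 2 or control replicate 1 or 2 (adjusted p 0.0502 to 0.104). Trp63 was at log2 1.37, adjusted p = 0.184 without PQ replicate 1 and log2 2.64, adjusted p = 0.0442 without control replicate 3.

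Sprr2a2 and Sprr2a3, squamous cornification genes, had among the highest effects. Sprr2a2 totalled 193 counts in the treated libraries and 2 in the controls, a ratio of 93.5 (95% interval from counting error alone 25.5 to 777), and it measured 0, 0.0566 and 0.0571 CPM in the controls and 8.52, 1.8 and 0.329 CPM after paraquat (edgeR adjusted p = 0.00999). Sprr2a3 totalled 142 and 2 counts, a ratio of 68.8 (18.7 to 574), at 0, 0.113 and 0 CPM in the controls and 4.67, 2.93 and 0.274 CPM after paraquat (edgeR adjusted p = 0.00938). These genes are near-identical copies, so their counts are uncertain relative to each other. Both were highest in PQ replicate 1, and both passed the filter on low counts only with the 1 week libraries included. Without PQ replicate 1 the effects were log2 4.57, adjusted p = 0.0137 for Sprr2a2 and log2 5.15, adjusted p = 0.0286 for Sprr2a3, without control replicate 1 Sprr2a2 was not called (adjusted p = 0.0515), and without control replicate 2 Sprr2a3 was at log2 8.55, adjusted p = 0.0316.

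Collagens are the substance of a scar. Of 18 tested interstitial collagen genes 4 rose (Col3a1, Col6a1, Col15a1 and Col24a1), a share above the 5.75% of all genes, and none fell, with a median of 0.10. Col1a1, a chain of type I collagen, measured 543, 561 and 548 CPM in the controls and 547, 650.3 and 549 CPM after paraquat, with groups that overlap (log2 0.08 ± 0.09, edgeR adjusted p = 0.59). Col3a1, the type III chain, measured 527, 604 and 528 CPM in the controls and 636, 788 and 767 CPM after paraquat and was 1.32-fold higher (log2 0.40 ± 0.10, edgeR adjusted p = 0.0227). Col6a1, a chain of microfibrillar type VI collagen, measured 290.1, 282 and 318 CPM in the controls and 391, 366 and 379.8 CPM after paraquat and was 1.28-fold higher (log2 0.35 ± 0.08, edgeR adjusted p = 0.0138). Treated values lay above all controls for Col3a1 and Col6a1, by small margins. Col24a1, a fibrillar collagen of low level here, measured 0.231, 0.566 and 0.342 CPM in the controls and 0.935, 1.13 and 1.48 CPM after paraquat and was 3.06-fold higher (log2 1.62 ± 0.46, edgeR adjusted p = 0.0411). Its call was lost without PQ replicate 1, 2 or 3 or control replicate 1 or 3 (adjusted p 0.0616 to 0.149). Col15a1 rose 1.45-fold. The count was 1 without PQ replicate 2, 2 without PQ replicate 3, 0 without control replicate 1, 2 without control replicate 2, 1 without control replicate 3 and 1 in a fit of the 6 libraries alone, and calls were lost for Col3a1 without PQ replicate 2 or 3 or control replicate 1 or 3 (adjusted p 0.0513 to 0.0981); Col6a1 without control replicate 1 or 2 (adjusted p 0.0557 to 0.066). Of 22 basement membrane genes Lama2, a laminin chain, rose and none fell, a share of rising genes near the 5.75% of all genes.

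Other matrix genes rose in part. Fn1, fibronectin, measured 370.3, 319 and 435 CPM in the controls and 584, 662 and 718 CPM after paraquat and was 1.75-fold higher (log2 0.80 ± 0.18, edgeR adjusted p = 0.0144). Tnc, tenascin C, a matrix protein of repair, measured 19.7, 16.7 and 17.6 CPM in the controls and 24.9, 40.2 and 31.5 CPM after paraquat and was 1.79-fold higher (log2 0.84 ± 0.18, edgeR adjusted p = 0.0139). Ltbp2, which binds elastic fibres, measured 159, 130.3 and 155 CPM in the controls and 208, 217 and 248 CPM after paraquat and was 1.51-fold higher (log2 0.60 ± 0.12, edgeR adjusted p = 0.00779). Mfap4, an elastic fibre protein, measured 474, 504 and 458 CPM in the controls and 858, 599 and 806 CPM after paraquat and was 1.58-fold higher (log2 0.66 ± 0.14, edgeR adjusted p = 0.0106). With Mfap5 they make up 5 of 33 tested glycoproteins and proteoglycans that rose, and Mfap2 fell. The shares over all genes were 5.75% rising and 6.39% falling. Without control replicate 1, 3 of the listed genes rose. Fn1 was not called without control replicate 1 or 2 (adjusted p 0.056 to 0.0593).

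Among genes that process and crosslink collagen 6 of 21 tested fell and 2 rose, against 6.39% and 5.75% of all genes (median -0.14). P4ha2, a prolyl hydroxylase of collagen chains, measured 79.9, 64.8 and 76.4 CPM in the controls and 45.2, 50.1 and 50.8 CPM after paraquat and was 1.51-fold lower (log2 -0.60 ± 0.09, edgeR adjusted p = 0.00207). Pcolce, which speeds the removal of the procollagen propeptide, measured 153, 163 and 157 CPM in the controls and 114, 119 and 123 CPM after paraquat and was 1.33-fold lower (log2 -0.41 ± 0.08, edgeR adjusted p = 0.00629). Serpinh1, the collagen chaperone HSP47, was also lower (1.35-fold), with P4ha1, Plod2 and Pcolce2, while Bmp1 and Loxl3 rose. Without control replicate 1, 2 fell. Among proteases and their inhibitors 7 of 26 rose and 2, Plat and Mmp9, fell, against 5.75% and 6.39% of all genes. Those that rose included Ctsk (1.77-fold), Mmp14 (1.45-fold), Mmp2 (1.93-fold) and Mmp12. Timp1, an inhibitor of metalloproteinases, did not pass at 7.81, 12.8 and 7.93 CPM in the controls and 10.7, 15.2 and 10.4 CPM after paraquat (log2 0.34 ± 0.19, edgeR adjusted p = 0.269).

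TGF-beta family genes moved both ways. Of 29 tested 3 rose and 5 fell, against 5.75% and 6.39% of all genes. Those that rose were Tgfbr1 (1.39-fold), Tgfbr2 (1.18-fold) and Fst (2.3-fold). Bmp6, a ligand of the BMP branch, measured 211, 212 and 198 CPM in the controls and 97.6, 131 and 137 CPM after paraquat and was 1.7-fold lower (log2 -0.76 ± 0.12, edgeR adjusted p = 0.00351). Id1, a target of BMP signalling, measured 122, 112 and 89.9 CPM in the controls and 59.6, 73.1 and 64.6 CPM after paraquat and was 1.64-fold lower (log2 -0.72 ± 0.11, edgeR adjusted p = 0.00277). Acvrl1 and Eng, endothelial receptors, and Smad6, an inhibitor, fell beside them. No treated value overlapped a control value for Bmp6 or Id1. Tgfb1 did not pass at 133, 121 and 124 CPM in the controls and 106, 105 and 133 CPM after paraquat (log2 -0.13 ± 0.09, edgeR adjusted p = 0.384), and it fell without PQ replicate 3 (log2 -0.25, adjusted p = 0.0444).

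Contractile genes of smooth muscle and myofibroblasts gave 1 call of 14, Tagln, which fell, a share near the 6.39% of all genes. Acta2, smooth muscle actin, did not pass at 193, 220.3 and 242 CPM in the controls and 153, 223 and 125 CPM after paraquat (log2 -0.39 ± 0.17, edgeR adjusted p = 0.164); PQ replicate 3 was the lowest library, and Acta2 fell without PQ replicate 2 (log2 -0.64, adjusted p = 0.00995). Of 18 alveolar fibroblast genes 4 fell and 1 rose, against 6.39% and 5.75% of all genes. Slc7a10, an amino acid carrier, measured 43.6, 42.3 and 45.4 CPM in the controls and 25.1, 21.2 and 20.8 CPM after paraquat and was 1.96-fold lower (log2 -0.97 ± 0.10, edgeR adjusted p = 0.000354). Tcf21, a transcription factor of lung fibroblasts, measured 87.4, 81 and 93 CPM in the controls and 55.1, 59.6 and 66.7 CPM after paraquat and was 1.44-fold lower (log2 -0.53 ± 0.09, edgeR adjusted p = 0.00434). Of 15 adventitial fibroblast genes 4 fell and 1, Ccl11, rose, against the same shares of all genes. Igfbp6, which binds IGF2, measured 231, 211 and 239.9 CPM in the controls and 111, 126 and 135 CPM after paraquat and was 1.83-fold lower (log2 -0.88 ± 0.18, edgeR adjusted p = 0.0106). Clec3b, tetranectin, was 1.39-fold lower (log2 -0.48 ± 0.10, edgeR adjusted p = 0.0122). In these genes treated values lay below all controls. The adventitial count was 2 without PQ replicate 1 and 2 without control replicate 2. Of 12 pericyte genes Lamc3, a laminin chain, rose at 21.5, 22.5 and 25.3 CPM in the controls and 39.4, 43.8 and 39.3 CPM after paraquat (log2 0.82 ± 0.10, edgeR adjusted p = 0.00113). Cox4i2 and Ndufa4l2 fell, so 1 pericyte gene rose and 2 fell, against 5.75% and 6.39% of all genes. Cox4i2 was 1.24-fold lower (log2 -0.31 ± 0.09, edgeR adjusted p = 0.0469) and lost its call without any 1 control or without PQ replicate 2 or 3 (adjusted p 0.0607 to 0.21).

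**Figure D4:**
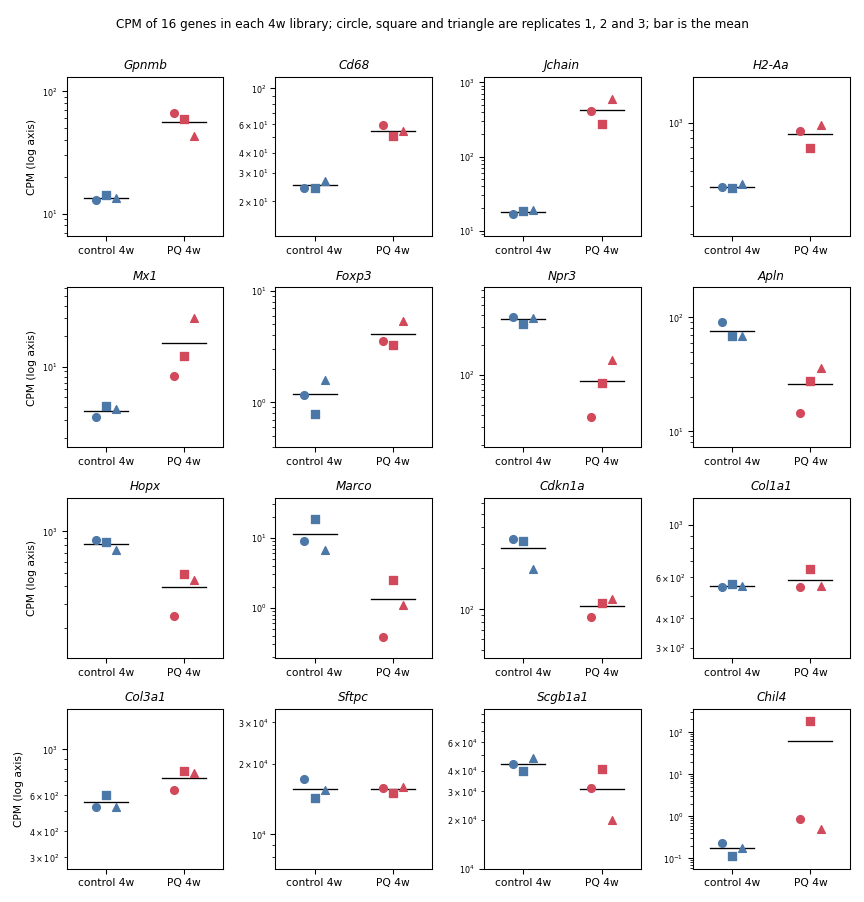
CPM of 16 genes in each library (log axis), blue for control 4w and red for PQ 4w; circle, square and triangle are replicates 1, 2 and 3 and the bar is the mean. Gpnmb, Cd68, Jchain and H2-Aa are higher and Npr3, Apln, Hopx, Marco and Cdkn1a lower in all 3 treated libraries, Col1a1, Sftpc and Scgb1a1 overlap, and the Chil4 mean comes from PQ replicate 2 (179 CPM).

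Genes of defence against oxidants and foreign compounds fell where they changed. Of 31 tested antioxidant and NRF2 target genes 9 fell and none rose (median -0.25). Gstm2, a glutathione transferase, measured 170.3, 193 and 184 CPM in the controls and 114, 132 and 113 CPM after paraquat and was 1.53-fold lower (log2 -0.61 ± 0.09, edgeR adjusted p = 0.00292). Prdx6, a peroxiredoxin that also turns over surfactant lipid, measured 1405, 1369 and 1298 CPM in the controls and 899, 1111 and 1004 CPM after paraquat and was 1.35-fold lower (log2 -0.43 ± 0.09, edgeR adjusted p = 0.00986). Cat, catalase, measured 329, 339.6 and 351 CPM in the controls and 295, 296 and 268 CPM after paraquat and was 1.19-fold lower (log2 -0.25 ± 0.06, edgeR adjusted p = 0.02). For each of these every treated library lay below every control. Hmox1, heme oxygenase, did not pass at 33.5, 36 and 30.1 CPM in the controls and 42.3, 41.4 and 40.7 CPM after paraquat (log2 0.32 ± 0.18, edgeR adjusted p = 0.28), nor did Nqo1, a quinone reductase, at 7.52, 12.6 and 6.73 CPM in the controls and 4.34, 5.91 and 4.89 CPM after paraquat (log2 -0.83 ± 0.26, edgeR adjusted p = 0.0563). Nqo1 fell without control replicate 3 (log2 -0.99, adjusted p = 0.0493). The number that fell was 3 without PQ replicate 1, 2 without control replicate 1, 2 without control replicate 2, 4 without control replicate 3 and 4 in a fit of the 6 libraries alone, and calls were lost for Prdx6 without control replicate 1 (adjusted p = 0.0535); Cat without PQ replicate 3 or control replicate 1, 2 or 3 (adjusted p 0.0529 to 0.0743).

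Of 25 genes of foreign compound metabolism 7 fell and none rose (median -0.27). The mean level of the list, on the log2 (CPM + 0.5) scale and relative to controls, was -0.21, -0.01 and -0.73 in PQ replicates 1, 2 and 3 and -0.17, 0.16 and 0.01 in the controls. PQ replicate 3, the library low in club cell genes, was the lowest, and Cyp2f2 stands in both lists; the part of those cells in the result was not tested. Cyp4b1, a lung cytochrome P450, measured 836, 720.4 and 798 CPM in the controls and 287, 459.7 and 398 CPM after paraquat and was 2.06-fold lower (log2 -1.04 ± 0.15, edgeR adjusted p = 0.00189). Ces1d, a carboxylesterase, measured 624, 632 and 651 CPM in the controls and 517, 527 and 448 CPM after paraquat and was 1.28-fold lower (log2 -0.35 ± 0.07, edgeR adjusted p = 0.008). The count was 4 without PQ replicate 1, 4 without control replicate 1, 2 without control replicate 2, 3 without control replicate 3 and 2 in a fit of the 6 libraries alone. Of the 7 that fell, Gsta3 and Gstm1 are also among the 9 antioxidant genes that fell. Ces1d is also among the alveolar fibroblast genes that fell. Of 25 subunits of mitochondrial complex I 6 fell and none rose, among them Ndufa8 (log2 -0.33 ± 0.07, edgeR adjusted p = 0.01) and Ndufs7 (log2 -0.41 ± 0.09, edgeR adjusted p = 0.0121). Groups did not overlap for 17 of the 25, against 31.2% of all genes, and the count of calls was 2 without PQ replicate 1, 3 without PQ replicate 3, 2 without control replicate 1, 2 without control replicate 2, 3 without control replicate 3 and 2 in a fit of the 6 libraries alone. Ndufs7 was lost without control replicate 1 (adjusted p = 0.0571).

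Genes of cell division rose in 13 of 30 tested members and fell in none (median 0.46). Top2a, the topoisomerase of dividing cells, measured 12.2, 10.6 and 10.2 CPM in the controls and 20.5, 15.1 and 25.4 CPM after paraquat and was 1.85-fold higher (log2 0.89 ± 0.18, edgeR adjusted p = 0.00968). Mki67, which encodes the Ki-67 antigen, measured 14.9, 14.5 and 11 CPM in the controls and 25.5, 17.2 and 35 CPM after paraquat and was 1.93-fold higher (log2 0.95 ± 0.21, edgeR adjusted p = 0.015). Aurkb, a mitotic kinase, measured 1.97, 2.26 and 2.28 CPM in the controls and 3.79, 3.32 and 4.39 CPM after paraquat and was 1.76-fold higher (log2 0.82 ± 0.16, edgeR adjusted p = 0.00888). PQ replicate 3 was the highest library for all 3 genes. The number that rose was 6 without PQ replicate 1, 6 without control replicate 1, 7 without control replicate 2, 8 without control replicate 3 and 1 in a fit of the 6 libraries alone, and Mki67 was not called without control replicate 3 (adjusted p = 0.0569).

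Of 24 tested p53 targets 3 rose and 4 fell, against 5.75% and 6.39% of all genes. Cdkn1a fell as described. The number that rose was 0 without control replicate 1 and 1 without control replicate 3, and the number that fell was 2 without PQ replicate 1, 1 without control replicate 1 and 2 without control replicate 2. Plk2, a polo-like kinase, rose at 54, 55.1 and 61.2 CPM in the controls and 75.3, 82.4 and 69.2 CPM after paraquat (log2 0.41 ± 0.09, edgeR adjusted p = 0.0107), and was not called without control replicate 1 (adjusted p = 0.0528). Gdf15, a secreted stress cytokine, did not pass at 2.26, 2.66 and 1.14 CPM in the controls and 2.2, 2.19 and 1.87 CPM after paraquat (log2 0.05 ± 0.30, edgeR adjusted p = 0.94). Of 19 immediate early genes 3 rose and 4 fell, against the same shares of all genes. Dusp1, a phosphatase of MAP kinases, was 1.43-fold lower (log2 -0.52 ± 0.10, edgeR adjusted p = 0.00968) and Jun was 1.29-fold lower (log2 -0.37 ± 0.08, edgeR adjusted p = 0.0115). Their calls were lost for Dusp1 without control replicate 1 (adjusted p = 0.0514); Jun without control replicate 1 or 3 (adjusted p 0.055 to 0.0575). Without control replicate 1 none of the immediate early genes fell and 1 rose. Of 21 genes of endoplasmic reticulum stress 4 fell and 1 rose, against 6.39% and 5.75% of all genes. The number that fell was 2 without PQ replicate 1, 2 without PQ replicate 2, 1 without control replicate 1 and 1 in a fit of the 6 libraries alone. Atf5, a transcription factor of that response, measured 232, 219 and 204 CPM in the controls and 138, 156 and 142 CPM after paraquat and was 1.5-fold lower (log2 -0.59 ± 0.07, edgeR adjusted p = 0.00108), and Ppp1r15a was 1.23-fold lower (log2 -0.30 ± 0.06, edgeR adjusted p = 0.0122) but lost without control replicate 1 (adjusted p = 0.0661). Of 12 heat shock genes 2 fell, against 6.39% of all genes, and none rose. They were Hspb1 (log2 -0.63 ± 0.14, edgeR adjusted p = 0.0144) and Bag3 (log2 -0.26 ± 0.07, edgeR adjusted p = 0.0372). Hspb1 was lost without control replicate 1 (adjusted p = 0.0724). Bag3 was lost without PQ replicate 1 or 2 or any 1 control (adjusted p 0.0702 to 0.139).

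Clock genes differed between the groups. Of 18 tested 8 rose and 1, Arntl, fell, against 5.75% and 6.39% of all genes. Arntl, which encodes the activator BMAL1, measured 20.9, 21 and 15.6 CPM in the controls and 7.86, 8.49 and 11.2 CPM after paraquat and was 2.09-fold lower (log2 -1.06 ± 0.18, edgeR adjusted p = 0.00451). Bhlhe40, a repressor of the BMAL1 arm, measured 51.8, 52.4 and 57.6 CPM in the controls and 99.6, 99.7 and 79.3 CPM after paraquat and was 1.72-fold higher (log2 0.78 ± 0.11, edgeR adjusted p = 0.00206). Other members that rose included Per2 (1.67-fold), Per3 (1.66-fold), Dbp (1.97-fold) and Nr1d2 (1.45-fold), which are known targets of BMAL1 and peak at other hours than Arntl. The E box bound by BMAL1, spelled CACGTG, was searched on both strands of the 250 bases before the RefSeq start. It occurs in 5 of 15 tested clock genes with a promoter in the table, against 9.17% of tested genes and 6.02% of all promoters. Of the 5, Bhlhe41 and Tef rose, and Ciart, Cry1 and Per1 did not pass. The windows of Per3, Dbp and Nr1d2 do not hold the E box letters, and that of Per2 was not searched. Another motif searched, the D box, is spelled TTATGNAA with N any base. It occurs in 2 of the 15, Per1 and Per3, against 2.53% of tested genes. The hour of tissue collection is not given in the sources used here. The count was 5 without PQ replicate 1, 3 without control replicate 1, 5 without control replicate 2 and 1 in a fit of the 6 libraries alone. Of 21 glycolysis and hypoxia genes 2 rose and 1, Vegfa, fell, against 5.75% and 6.39% of all genes. Ankrd37, a target of hypoxia-inducible factor, measured 2.78, 4.19 and 4.11 CPM in the controls and 23.6, 16.4 and 11.3 CPM after paraquat and was 4.63-fold higher (log2 2.21 ± 0.27, edgeR adjusted p = 0.00105).

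The genes with the largest effects under the naming rule also included several of other kinds. Npy2r (chr3:82538383-82548989), a neuropeptide Y receptor, totalled 109 counts in the treated libraries and 0 in the controls, which makes it at least 35.2-fold higher when 3 counts over the group stand in for 0. It measured 3.08, 1.52 and 1.43 CPM in the treated libraries (edgeR adjusted p = 0.00463). Kng2, a kininogen, measured 0.231, 0.17 and 0.114 CPM in the controls and 7.26, 3.66 and 3.46 CPM after paraquat and was 26.9-fold higher (log2 4.75 ± 0.64, edgeR adjusted p = 0.0014). Treated values of both genes lay above all controls, which the naming rule required. Plekhs1 measured 0.0579, 0.113 and 0.342 CPM in the controls and 1.59, 1.13 and 3.24 CPM after paraquat (log2 3.48 ± 0.69, edgeR adjusted p = 0.00877), with an effect of log2 4.44, adjusted p = 0.0159 without control replicate 3 and the call was lost without control replicate 1 (adjusted p = 0.05003).

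Among the largest decreases Fabp1, a fatty acid binding protein best known from liver, measured 5.32, 6.05 and 4.97 CPM in the controls and 0.715, 1.46 and 1.21 CPM after paraquat and was 4.81-fold lower (log2 -2.27 ± 0.29, edgeR adjusted p = 0.00122). Disp2, of the Dispatched family, measured 72.8, 59.4 and 57.4 CPM in the controls and 8.63, 16.1 and 25.9 CPM after paraquat and was 3.74-fold lower (log2 -1.90 ± 0.28, edgeR adjusted p = 0.00193). Cst8, a cystatin, measured 4.17, 3.85 and 3.6 CPM in the controls and 0.55, 0.788 and 1.15 CPM after paraquat and was 4.63-fold lower (log2 -2.21 ± 0.29, edgeR adjusted p = 0.00124). Each had all 3 treated values below every control, which the naming rule required. Olfm2, an olfactomedin, was 3.98-fold lower (log2 -1.99 ± 0.39, edgeR adjusted p = 0.00779), and log2 -2.64, adjusted p = 0.00109 without PQ replicate 3. Apob, the core apolipoprotein of large lipid particles, measured 2.31, 2.54 and 1.54 CPM in the controls and 0, 0.394 and 0.769 CPM after paraquat (log2 -2.44 ± 0.65, edgeR adjusted p = 0.0301), and was log2 -3.41, adjusted p = 0.0108 without PQ replicate 3. Nlrp12, a NOD-like receptor of myeloid cells, measured 2.26, 5.09 and 1.2 CPM in the controls and 0.385, 0.506 and 0.878 CPM after paraquat (log2 -2.26 ± 0.60, edgeR adjusted p = 0.0296), and was log2 -1.53, adjusted p = 0.128 without control replicate 2. Calls were lost for Apob without PQ replicate 1 or 2 or control replicate 1 or 2 (adjusted p 0.057 to 0.0956); Nlrp12 without PQ replicate 1 or 2 or control replicate 1 or 2 (adjusted p 0.0633 to 0.128).

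A few genes outside the lists and the rule were picked after their values were seen, for small p and large effect. Nos2, the inducible nitric oxide synthase, measured 3.01, 3.9 and 3.31 CPM in the controls and 25, 15.1 and 14.7 CPM after paraquat and was 5.35-fold higher (log2 2.42 ± 0.21, edgeR adjusted p = 0.000156). Ntrk2, the receptor of brain-derived neurotrophic factor, measured 15, 18.8 and 21.2 CPM in the controls and 191, 104 and 70.2 CPM after paraquat and was 6.65-fold higher (log2 2.73 ± 0.30, edgeR adjusted p = 0.000574). In both genes the treated libraries all exceeded the controls. Pdcd1, the checkpoint receptor PD-1, measured 1.22, 0.622 and 0.514 CPM in the controls and 2.53, 2.31 and 4.5 CPM after paraquat and was 3.95-fold higher (log2 1.98 ± 0.35, edgeR adjusted p = 0.00477). Enho, which encodes the secreted peptide adropin, measured 21.3, 19.5 and 18.4 CPM in the controls and 5.28, 8.16 and 7.41 CPM after paraquat and was 2.84-fold lower (log2 -1.50 ± 0.18, edgeR adjusted p = 0.00101). Xpnpep2, an aminopeptidase, measured 17, 17 and 13.5 CPM in the controls and 4.01, 5.91 and 7.03 CPM after paraquat and was 2.8-fold lower (log2 -1.49 ± 0.18, edgeR adjusted p = 0.000833). The last pair lay below the controls in all 3 treated libraries, and the calls of all 5 genes held with any 1 library left out.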

How the data were processed

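RNA of homogenized lung was sequenced on a BGI instrument, per the labels' protocols. The submitters' processing notes name HISAT, RSEM 1.2.12 and mm10; annotation and strandedness were not given in the sources used here. Expected counts per gene were deposited by the authors without depth scaling, per the file headers, and FPKM values were deposited beside them and served only as group means in tables. Of the expected counts 69.7% were whole, and all were rounded. Genes absent from a library's table counted as 0. Date-like symbols (27) were restored from gene IDs.

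The test was edgeR 4.0.16's quasi-likelihood F-test in R 4.3.3 with Benjamini-Hochberg adjustment over 15921 genes. Its model held 4 group means over 12 libraries, TMM factors and the filterByExpr filter (at least 10 counts, at least 15 in total). The 1 week groups entered the estimate of spread, the TMM factors and the filter, but no comparison. The code was tested on simulated counts. Standard errors are the absolute effect over the square root of F. Where controls had 0 counts, 3 counts over the group were used for a fold; this floor and the 95% intervals cover counting error only. Coordinates are GRCm38 (mm10) from RefSeq. Tables and plots used Python 3.11.15, pandas 2.3.3, numpy 2.4.6 and matplotlib 3.10.9.

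Genes given with full values were the 10 highest and 10 lowest effects among called genes without overlap and averaging 1 CPM or more (predicted genes, histones and immune receptor segments left out), the 2 called members of smallest p in each list with at least 2, and 31 fixed genes, of which 1 was not tested; some genes are not reported here. Of 1056 listed symbols in 56 lists 1044 matched. The members, lists and rules were chosen with earlier results of these data known, so no count is independent support. Lists got no test of their own. Alternatives were DESeq2 1.42.0 and its size factors, no filter, the 6 libraries alone, a replicate block and leaving out each library.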

Additional observations from a re-analysis of the deposited data

How the results depend on the processing

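With DESeq2 size factors, no filter on low counts or DESeq2, the counts of genes that rose (836 to 1139), fell (796 to 1067), or changed at least 2-fold up (292 to 309) and down (87 to 93) stayed within 1.5 times those reported (915, 1017, 294 and 94). A fit of the 6 libraries alone, with fewer samples behind the spread, gave 366, 380, 151 and 42. With any 1 library left out, the genes that rose numbered 351 to 1061 and those that fell 290 to 1043, with 170 to 352 and 50 to 126 for changes of at least 2-fold, lowest without control replicate 1; the cause was not tested. Of the genes called, 346 higher and 286 lower were shared with the fit without control replicate 1.

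Same-numbered libraries showed no clear pairing: their deviations correlated at -0.11, 0.15 and -0.18, and not every library correlated best with its own number. With 3 libraries a group these correlations cannot decide whether the samples were paired. With the number as a block 456 genes rose and 439 fell, with 198 and 70 changing at least 2-fold.

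No named gene changed direction while called. Of the 103 called among 120 named genes, 37 lost their call without control replicate 1, 32 in the fit of the 6 libraries alone and 23 with the block. Chil4, Sprr2a2 and Sprr2a3, also called, fell under the filter on low counts in the fit of the 6 libraries alone and have no value there. These genes passed the filter of the reported fit only with the 1 week libraries included. With 3 libraries a group, small changes and genes of few counts are limited by the spread between libraries and by depth, so a gene that did not pass is not shown to be unchanged.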
